A study of Mus musculus with 45 samples.

Results

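The 6 genes followed here lie away from S1pr4 in the genome and were read in all 45 libraries of the series: Slpi, Ier5l, Irs2, Gpc1, Fam111a and Lrr1. They were chosen by their difference between S1PR4 KO and WT Tfh cells, so that difference is given here as a description and carries no test. The table held 55450 genes, of which 13495 passed the low-count filter in the Tfh libraries. In that fit 67 genes were called, that is, had a false discovery rate (FDR) under 0.05 and a fold change over 1.5; 56 of these 67 lay outside chromosome 10, which carries S1pr4, and 5 of the 6 genes were among the 56.

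RNA was sequenced from CD4+ T cells and B cells sorted out of draining popliteal lymph nodes. All mice came from the S1pr4tm1Dgen line on a B6.129P2 background, crossed back to C57/BL6 for at least 10 generations. Males and females of 8 to 12 weeks were used, and WT littermates served as controls. Each mouse had received 20 µl of OVA and LPS (50 µg and 5 µg) in an IFA emulsion in a hind footpad. The 4 T cell groups were taken on day 6: Tfh WT, Tfh S1PR4 KO, non-Tfh WT and non-Tfh S1PR4 KO, with 6 libraries in each. Tfh cells were sorted as PD1+ CXCR5+ and non-Tfh cells as PD1- CXCR5- cells of the CD4+ T cell gate. The 4 B cell groups were taken on day 9. GC B cells (GL7+ Fas+) gave 6 WT and 6 S1PR4 KO libraries, and non-GC B cells (GL7- Fas-) gave 5 WT and 4 S1PR4 KO libraries. The deletion was present in every cell of the KO mice, so a difference in a sorted population need not arise within that population. The study's methods give 6 WT and 6 S1PR4-/- mice, and the labels do not tie each library to a mouse, so p-values measure the spread between these libraries. In sorted bulk samples, fewer cells of a type and less RNA per cell cannot be told apart.

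Sphingosine-1-phosphate is a lipid sensed by a family of G protein-coupled receptors, and S1PR4 is the member found mainly on leukocytes. Tfh cells enter follicles and help B cells of the germinal center divide and mutate their antibody genes. The 6 genes share no single pathway. Slpi encodes a secreted WAP-domain inhibitor of neutrophil serine proteases, and Gpc1 a glypican, a heparan sulfate proteoglycan tethered to the cell surface. Irs2 encodes an adaptor that links insulin, IGF1 and IL-4 receptors to phosphoinositide 3-kinase, and Ier5l belongs to a family of immediate early response genes. Fam111a encodes a serine protease that binds PCNA at replication forks, and Lrr1 the substrate receptor with which the CUL2 ubiquitin ligase unloads replicative helicase when forks meet.

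The libraries held between 26299429 and 45548215 expected counts each. S1pr4 had 0 to 40 counts in the 22 KO libraries and 505 to 6305 in the 23 WT libraries, in accord with the labels. The 10 Tfh markers summed to 2849 to 4356 CPM (counts scaled to library size) in Tfh libraries and to 309 to 601 CPM in non-Tfh libraries, and the 10 GC B markers to 1810 to 3263 CPM in GC B libraries against 136 to 195 CPM in non-GC B libraries. Sex, read from Xist and Ddx3y, was uneven in the T cell groups: 5 of 6 WT libraries and 2 of 6 KO libraries were female, in Tfh and non-Tfh alike. Each member's Tfh values are therefore also given with sex in the fit.

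The genes are spread over 5 chromosomes. In GENCODE M21 on GRCm38, Slpi spans chr2:164354070-164389095 and Ier5l chr2:30471537-30474219, both on the minus strand. Irs2 spans chr8:10984681-11008458 on the minus strand. Gpc1 spans chr1:92831645-92860779, Fam111a chr19:12545740-12589768 and Lrr1 chr12:69168814-69179009, all on the plus strand. Fam111a lies within the opposite-strand transcript A330040F15Rik over 44029 bases, which averaged between 0.183 and 3.57 CPM in the 8 groups. Gpc1 shares 977 bases with the opposite-strand gene Ankmy1, which averaged 0.185 to 0.876 CPM. The libraries were made with a stranded kit, but the strand setting of the counting is not given in the sources used here.

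The RefSeq table gave promoters on GRCm38.p6 for 5 members, all but Gpc1. The 250 bases before the RefSeq start are shown for the 3 genes that were lower in S1PR4 KO Tfh cells. These 3 changed most in the Tfh cells and can be compared letter by letter. RefSeq and GENCODE starts can differ, and the Slpi window lies inside the GENCODE span of that gene given above. The Ier5l window overlaps the end of its GENCODE span at 30474219. The Irs2 window lies wholly beyond its GENCODE span, which ends at 11008458. Capitals mark matches, on either strand, to the motifs searched: E2F (TTTCGCGC and TTTGGCGC), FOXO (TGTTTAC), CRE (TGACGTCA), NF-Y (CCAAT) and the GC box (GGGGCGGGG), plus one NF-kB and one SRF motif.
Slpi, chr2:164356508-164356757, minus strand: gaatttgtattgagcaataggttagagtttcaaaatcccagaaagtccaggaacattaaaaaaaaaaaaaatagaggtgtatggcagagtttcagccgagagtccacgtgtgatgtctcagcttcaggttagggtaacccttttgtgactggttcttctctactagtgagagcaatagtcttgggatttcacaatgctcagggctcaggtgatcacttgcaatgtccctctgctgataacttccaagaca
Ier5l, chr2:30474200-30474449, minus strand: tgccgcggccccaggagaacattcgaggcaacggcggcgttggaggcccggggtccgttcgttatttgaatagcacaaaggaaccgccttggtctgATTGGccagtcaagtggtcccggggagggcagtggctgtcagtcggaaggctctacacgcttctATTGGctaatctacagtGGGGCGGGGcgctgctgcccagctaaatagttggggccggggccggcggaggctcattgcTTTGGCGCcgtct
Irs2, chr8:11008930-11009179, minus strand: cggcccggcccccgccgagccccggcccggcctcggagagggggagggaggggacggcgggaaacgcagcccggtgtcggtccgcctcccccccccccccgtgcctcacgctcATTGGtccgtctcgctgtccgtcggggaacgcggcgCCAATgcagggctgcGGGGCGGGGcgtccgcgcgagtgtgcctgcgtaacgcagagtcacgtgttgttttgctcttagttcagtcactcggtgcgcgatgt

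The Ier5l window held an E2F motif 13 bases before the RefSeq start, a GC box and a pair of NF-Y motifs. That E2F motif lies inside the GENCODE span of the gene. The Irs2 window also held a GC box and a pair of NF-Y motifs. No searched motif was found in the Slpi window, whose GC content was 42.0% against 62.4% for Ier5l and 72.8% for Irs2. Fam111a had NF-Y matches and no other in both of its RefSeq entries, and Lrr1 had none. Among all 32851 promoters in the table, the NF-Y letters were found in 33.8%, the GC box in 10.4% and the E2F letters TTTGGCGC in 0.417%. A match is a run of letters and not evidence that a factor binds there.

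In Tfh cells, the comparison that chose the genes, S1PR4 KO libraries had less Slpi, Ier5l and Irs2 and more Gpc1, Lrr1 and Fam111a. Of the 6, 5 met both call limits, beside 0.496% of all 13495 genes, and 4 did not overlap between genotypes, beside 1.80% of all genes. These counts were fixed by how the genes were picked. The plot of levels by library shows the same values for all 8 groups.

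**Figure D1:**
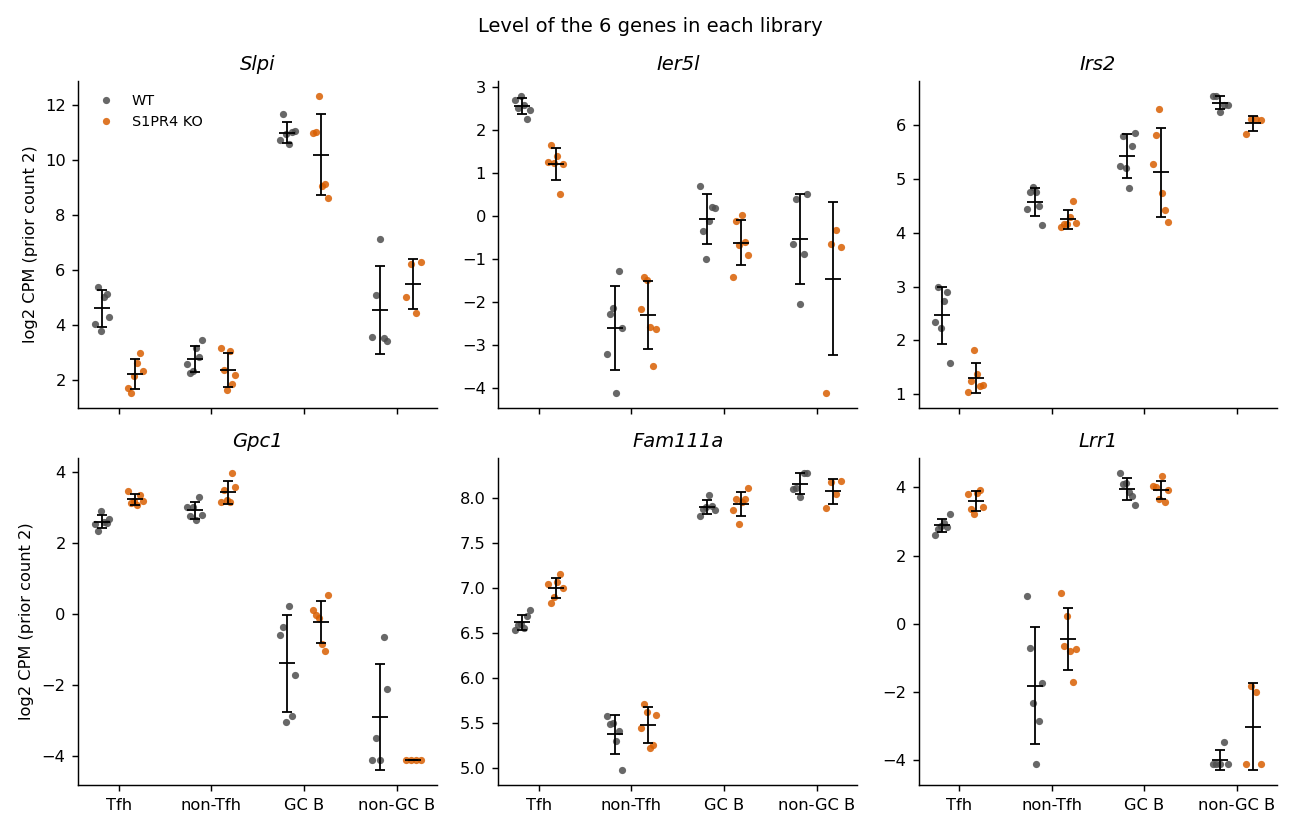
Level of each gene in each of the 45 libraries, as log2 CPM with a prior count of 2, for the 4 populations on the x axis. Grey points are WT and orange points S1PR4 KO libraries, and bars give the mean and SD of each group. Slpi, Ier5l, Gpc1 and Fam111a do not overlap between genotypes in Tfh cells, and the vertical scale differs between panels.

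Slpi, the protease inhibitor, was the member with the widest range. In Tfh cells it had a lowest, median and highest level of 13.6, 26.0 and 42.2 CPM in WT and of 2.84, 4.69 and 7.94 CPM in S1PR4 KO libraries. Every KO library was below every WT library, with a log2 fold change of -2.40. The only male WT library, replicate 3, had the lowest WT level, and the 4 male KO libraries lay between 2.84 and 5.03 CPM. The 2 female KO libraries had 6.03 and 7.94 CPM and the 5 female WT libraries 16.3 to 42.2 CPM, so the genotypes did not overlap within either sex. With sex in the fit the log2 fold change was -1.95, and among females it was -2.02.

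In non-Tfh cells Slpi was at 4.78, 6.51 and 10.9 CPM in WT and 3.06, 4.76 and 8.92 CPM in KO libraries, and the groups overlapped. The order of mean levels ran from GC B WT (2101 CPM ± 611, SD, n = 6) and GC B S1PR4 KO (1794 ± 1816, n = 6) through non-GC B KO (51.6 ± 28.8, n = 4), non-GC B WT (41.4 ± 55.3, n = 5) and Tfh WT (26.5 ± 11.6, n = 6). Below these came non-Tfh WT (7.09 ± 2.40, n = 6), non-Tfh KO (5.56 ± 2.46, n = 6) and Tfh KO (4.90 ± 1.89, n = 6). Neighbours in this order overlapped, except GC B KO with non-GC B KO and Tfh WT with non-Tfh WT. Tfh WT libraries thus had more Slpi than non-Tfh libraries, and Tfh KO libraries were at the level of non-Tfh cells.

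Slpi is a gene that GC B cells expressed at a level far above that of any T cell library, so genes of the B lineage were read beside it. In Tfh libraries the mean of Slpi was 1.26% of its GC B WT mean in WT and 0.233% in KO. For the 12 B cell markers the median of the same percentage was 2.15% in WT and 0.433% in KO Tfh libraries, and 11 of the 12 had a lower mean in KO. The summed B cell markers ranged from 1176 to 1514 CPM in WT and from 931 to 1306 CPM in KO Tfh libraries. Ighm, with means of 958 CPM in WT and 866 CPM in KO, and Cd22, with 183 and 194 CPM, made up most of these sums. Ighm also averaged 1149 CPM in non-Tfh WT libraries. The sums therefore say little about the other B cell markers.

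Of the 8 plasma cell markers, 7 had a lower mean in KO and 3 did not overlap between genotypes, and the median percentage of the GC B WT mean was 9.30% in WT and 2.31% in KO Tfh libraries. The median log2 fold change was -2.24 over the 12 B cell markers and -1.35 over the 7 plasma cell markers tested. In non-Tfh cells it was -2.11 over the 8 B cell markers tested, all of them negative, beside -0.35 for Slpi. Over the 7 plasma cell markers tested there it was -0.08, with 3 positive and 4 negative. Among these 7, Mzb1 was at -3.77 and Jchain at -3.23. How the marker and Slpi differences relate over the populations was not tested. The 8 plasma cell markers summed to 290 to 676 CPM in WT and 241 to 288 CPM in KO Tfh libraries, without overlap. Xbp1, with means of 241 CPM in WT and 189 CPM in KO, was the largest part of the mean sums. Mzb1, a chaperone of antibody-secreting cells, was at 11.6, 34.4 and 83.5 CPM in WT and at 0, 1.92 and 5.47 CPM in KO Tfh libraries. Jchain, which joins polymeric antibodies, was at 13.5, 41.6 and 146 CPM in WT and at 0.0221, 5.05 and 9.41 CPM in KO. Both were lower in every KO library than in any WT library, as was Derl3. Irf4, Xbp1, Sdc1 and Tnfrsf17 had a lower mean in KO but overlapped, Prdm1 averaged 21.4 CPM in WT and 23.4 CPM in KO, and none of the 8 plasma cell markers was at 0 in all libraries of either Tfh group. With the mean plasma cell marker level in the fit, an alternative chosen after the data were seen, the log2 fold change of Slpi was -1.32, and with the B cell marker level it was -2.27. Neither adjusted fit called any member in Tfh cells. The part of B-lineage RNA in the Slpi difference was not tested beyond these values. Of the 10 neutrophil markers, which mark the cells whose proteases Slpi inhibits, 4 were at 0 in every WT and 4 in every KO Tfh library, and the summed level was at most 3.58 CPM in WT and 7.29 CPM in KO. The 11 macrophage and monocyte markers summed to 18.1 to 86.3 CPM in WT and to 17.0 to 448 CPM in KO Tfh libraries, with KO replicate 6 the highest, and their part in the results was not tested.

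**Figure D2:**
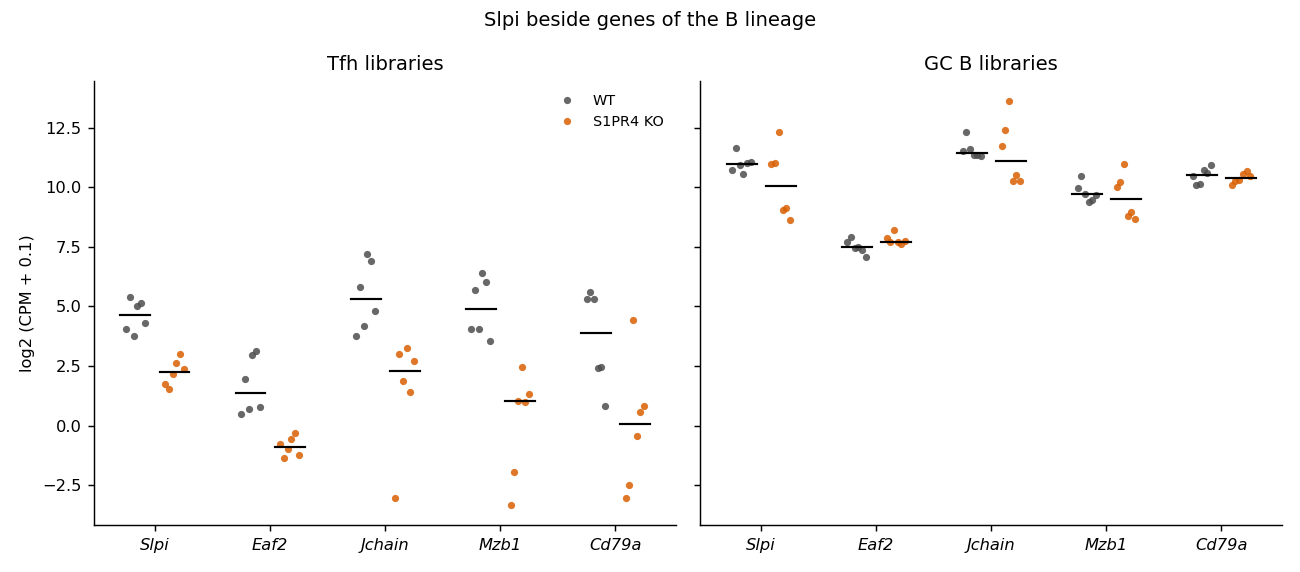
Slpi beside Eaf2, the plasma cell markers Jchain and Mzb1 and the B cell marker Cd79a, as log2 (CPM + 0.1), in Tfh libraries (left) and GC B libraries (right). Points are libraries (grey WT, orange S1PR4 KO) and lines are medians; Slpi, Eaf2, Jchain and Mzb1 are lower in every KO than in every WT Tfh library.

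Over all 45 libraries the genes whose log2 CPM followed Slpi most closely, among 12021 genes with a mean of at least 1 CPM, were 4933404K13Rik, Prg2 and Eaf2, with Pearson's r of 0.958, 0.955 and 0.954. These correlations describe libraries that share populations, and no test was made. Eaf2, a partner of transcription elongation factors, averaged 184 CPM in GC B WT, 226 CPM in GC B KO and 4.05 CPM in Tfh WT libraries. Its Tfh WT mean was 2.20% and its Tfh KO mean 0.253% of the GC B WT mean, beside 1.26% and 0.233% for Slpi.

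In GC B cells Slpi did not differ between genotypes by the test (log2 fold change -0.23 ± 0.54, SE, 95% interval -1.40 to 0.94, edgeR quasi-likelihood test with Benjamini-Hochberg adjustment, adjusted p = 0.997). The KO libraries were wide apart: replicates 1, 2 and 3 had 2031, 2097 and 5150 CPM and replicates 4, 5 and 6 had 534, 561 and 391 CPM. WT libraries lay between 1519 and 3257 CPM. The summed plasma cell markers of the same KO libraries were 5895, 8769 and 18740 CPM in replicates 1 to 3 and 2098, 2507 and 2112 CPM in replicates 4 to 6, so the KO libraries high for Slpi were those high for plasma cell markers. Their part in the level of Slpi was not tested. In non-GC B cells the WT libraries had 11.9, 34.2, 139, 11.6 and 10.7 CPM and the KO libraries 32.1, 74.9, 21.8 and 77.6 CPM of Slpi, with a log2 fold change of 0.34 ± 0.74 (SE, adjusted p = 0.995).

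The WAP and neutrophil protease list held 8 other genes that passed the filter in Tfh cells, and none of them was called between genotypes (median log2 fold change -0.11, all genes 0.00). Between Tfh and non-Tfh cells of WT mice 6 of 7 tested were higher and 1 lower, beside 43.2% of all genes called in that comparison. Grn, the WAP-related progranulin gene, had a log2 fold change of 2.46 ± 0.10 (SE), Plscr1 of 3.09 ± 0.16 and Serpinb6b, a serpin, of 1.65 ± 0.09, while Serpinb6a fell by 0.60 on the log2 scale.

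Ier5l was largely a Tfh transcript in these libraries. It was at 4.74, 5.79 and 6.91 CPM in Tfh WT and at 1.37, 2.31 and 3.07 CPM in Tfh KO libraries, and no KO library reached a WT library. The log2 fold change was -1.31, and it was -1.47 with sex in the fit, -1.48 among females, -1.32 with the B cell marker level and -1.46 with the plasma cell marker level. In GC B WT libraries, the highest B cell group, Ier5l averaged 0.966 CPM ± 0.384 (SD, n = 6), below every Tfh WT library.

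In non-Tfh cells Ier5l had 0 to 13 counts per library in WT and 1 to 13 in KO and did not pass the filter, so no difference between genotypes was detectable at this depth. GC B KO libraries averaged 0.633 CPM ± 0.240 (SD, n = 6) and the difference did not pass (log2 fold change -0.62 ± 0.34, SE, 95% interval -1.34 to 0.11, edgeR adjusted p = 0.985). In non-GC B cells it was -0.72 ± 0.88 (SE, adjusted p = 0.995). The highest non-Tfh library had 0.354 CPM in WT and 0.32 CPM in KO, below the lowest Tfh library of either genotype. The gene passed the filter of that comparison only through the Tfh libraries, which also chose it, so no test is given. In the order of means, Tfh KO overlapped GC B WT, and the B cell groups overlapped each other. GC B WT, at 0.44 CPM or more, did not overlap either non-Tfh group.

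The genes nearest to Ier5l over the 45 libraries were Lrrfip2, Cemip2 and Cdk5r1 (r = 0.895, 0.891 and 0.888). Unlike Ier5l, these averaged nearly alike in Tfh WT and KO libraries: 27.5 and 25.5 CPM for Lrrfip2, 69.6 and 70.1 CPM for Cemip2, and 10.1 and 8.54 CPM for Cdk5r1. The 13 other tested genes of the immediate early response list had no call between genotypes in Tfh cells (median log2 fold change 0.02). Between Tfh and non-Tfh WT cells 4 were higher and 3 lower, beside 43.2% of all genes called. Egr1, an immediate early zinc finger factor, was higher by 0.73 ± 0.11 (log2, SE), Ier3 by 2.30 ± 0.35 and Hspa1b by 1.99 ± 0.51. Hsf1, the heat shock factor, fell by 1.12, Ier2 by 0.90 and Dnajb1 by 0.59 on the same scale.

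Irs2, the receptor adaptor, was low in Tfh cells and high in B cells. It was at 2.94, 5.82 and 7.88 CPM in Tfh WT and at 1.99, 2.25 and 3.47 CPM in Tfh KO libraries. WT replicate 6, at 2.94 CPM, lay within the range of the KO libraries and the other 5 above it. The log2 fold change was -1.21, it was -1.16 with sex in the fit and -1.31 among females, and it was -0.82 with the B cell marker level and -0.53 with the plasma cell marker level. The Tfh WT mean was 13.0% and the Tfh KO mean 5.54% of the GC B WT mean of 44.2 CPM.

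Irs2 was also on the lower side in KO libraries of the other 3 populations, and no test passed. In non-Tfh cells it was at 17.6, 24.7 and 28.8 CPM in WT and 17.2, 17.9 and 24.1 CPM in KO libraries (log2 fold change -0.34 ± 0.13, SE, 95% interval -0.61 to -0.06, edgeR unadjusted p = 0.0203, adjusted p = 0.342), a value of -0.31 with sex in the fit and of -0.055 among females. In non-GC B cells the WT libraries had 92.7, 93.1, 76.1, 82.3 and 83.0 CPM and the KO libraries 56.7, 69.1, 68.7 and 68.1 CPM. All KO libraries were below all WT libraries there (log2 fold change -0.38 ± 0.10, SE, 95% interval -0.59 to -0.17, edgeR unadjusted p = 0.0021, adjusted p = 0.865). Irs2 was the only member of the 6 whose non-GC B groups did not overlap, beside 1.64% of all genes tested. In GC B cells the log2 fold change was -0.15 ± 0.33 (SE, adjusted p = 0.997), with KO replicates 1 to 3 at 38.7, 56.4 and 78.9 CPM and replicates 4 to 6 at 26.6, 21.3 and 18.3 CPM, the same libraries that were high and low for Slpi and the plasma cell markers.

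Tfh cells had less Irs2 than non-Tfh cells in both genotypes, by 2.12 ± 0.21 in WT and 2.98 ± 0.15 in KO on the log2 scale (SE). The Tfh libraries here also chose the gene, so these 2 values are a description and no test is given. GC B WT cells had less than non-GC B WT cells (log2 fold change -0.95 ± 0.17, SE, edgeR adjusted p = 0.000235). In KO cells the difference of -0.73 ± 0.35 did not pass (adjusted p = 0.0868). Without GC B KO replicate 3, the library highest for Irs2 in its group, the KO difference was -1.03 and passed (adjusted p = 0.00974). The order of means ran non-GC B, GC B, non-Tfh, Tfh, with KO below WT in each, and only non-GC B WT with KO and non-Tfh KO with Tfh WT did not overlap as neighbours.

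Zdhhc14, Srms and Rnf122 were nearest to Irs2 (r = 0.962, 0.952 and 0.949). In Tfh WT and KO libraries Zdhhc14 averaged 0.631 and 0.391 CPM and Srms 0.364 and 0.0752 CPM, both low levels. Rnf122 averaged 5.23 and 4.33 CPM in Tfh WT and KO and 83.1 and 85.7 CPM in non-GC B WT and KO libraries. The insulin receptor substrate list had 21 other genes tested in Tfh cells and none was called between genotypes (median log2 fold change -0.06). Between Tfh and non-Tfh WT cells 4 of the 21 were higher and 5 lower, a share near the 43.2% of all genes called. Ptpn1, the phosphatase acting on the insulin receptor, was higher by 1.03 ± 0.06 (log2, SE), Akt1 by 0.73 ± 0.06 and Grb2 by 0.63 ± 0.06. Foxo1, the transcription factor restrained by AKT, fell by 1.09, Pik3r1 by 1.15 and Tsc1 by 0.60.

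Gpc1, the glypican, was higher in KO libraries of both T cell populations, and only the Tfh difference, on which it was chosen, met the call limits. It was at 4.97, 5.94 and 7.41 CPM in Tfh WT and 8.30, 9.08 and 11.0 CPM in Tfh KO libraries, without overlap and with a log2 fold change of 0.66. That value was 0.58 with sex in the fit, 0.70 among females, 0.61 with the B cell marker level and 0.46 with the plasma cell marker level. The choice used no non-Tfh library, but these libraries may come from the same mice as the Tfh libraries. In non-Tfh cells the levels were 6.25, 7.45 and 9.86 CPM in WT and 8.86, 10.2 and 15.7 CPM in KO libraries. The groups overlapped, with a log2 fold change of 0.53 ± 0.16 (SE, 95% interval 0.18 to 0.88, edgeR unadjusted p = 0.00572, adjusted p = 0.22). It was 0.58 with sex in the fit and 0.74 among females.

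In B cells Gpc1 was scarce. GC B libraries averaged 0.473 CPM ± 0.417 in WT and 0.863 CPM ± 0.361 in KO (SD, n = 6 each), and the log2 fold change of 0.84 ± 0.57 did not pass (SE, edgeR adjusted p = 0.985). Non-GC B WT libraries held 24 counts in all, and all 4 non-GC B KO libraries were at 0. GC B KO cells therefore had at least 37.7-fold more Gpc1 than non-GC B KO cells, against a floor of 3 counts over the group, and in WT cells the ratio was 3.42 (95% counting interval 2.17 to 5.60, exact binomial, counting error only). Non-GC B WT replicate 4 held 18.5 of those expected counts, and without it the ratio was 11.1 (4.91 to 30.9), a check added after the data were seen. These ratios pool the counts of each group. In KO cells Gpc1 passed the filter only through the GC B libraries, so the bound of 37.7 is a description. No T cell group overlapped a B cell group. Tfh WT lay below non-Tfh WT by a log2 fold change of -0.39 ± 0.14, and the KO difference was -0.24 ± 0.15 (SE), both under the fold limit. The Tfh libraries also chose the gene, so these values are a description and no test is given.

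Vps26b, Tnfaip8l1 and Gstp3 were nearest to Gpc1 (r = 0.961, 0.953 and 0.951). Their means differed little between Tfh WT and KO libraries: 107 and 104 CPM for Vps26b, 49.9 and 50.2 CPM for Tnfaip8l1, and 31.6 and 28.5 CPM for Gstp3. Of the 21 other tested genes for glypicans, syndecans and heparan sulfate synthesis, 1 was called in Tfh cells. This was Sdc4, a syndecan, which fell by 1.13 ± 0.24 (log2, SE, edgeR adjusted p = 0.0447) from 5.51 CPM ± 1.01 in WT to 2.47 CPM ± 1.05 in KO (SD, n = 6). Sdc1, a syndecan that is also one of the plasma cell markers, had a log2 fold change of -1.35 ± 0.33 (SE, adjusted p = 0.0552). Between Tfh and non-Tfh WT cells 6 of the 21 were higher, led by Ext1, which builds the heparan sulfate chain, at 0.91 ± 0.06 (log2, SE), Sdc1 at 3.20 ± 0.45 and the heparanase gene Hpse at 1.90 ± 0.29. Another 5 were lower, beside 43.2% of all genes called in either direction, led by B4galt7, Xylt2 and Hs3st3b1, which fell by 1.10, 1.00 and 1.94.

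Fam111a and Lrr1, the genes of the replication fork, were both higher in KO Tfh cells. Fam111a was at 92.6, 96.8 and 108 CPM in Tfh WT and 114, 130 and 142 CPM in Tfh KO libraries, without overlap. Its log2 fold change of 0.41 was under the fold limit of 1.5, which made it the member not called; Gpc1 was the nearest above that limit, at 0.66. With sex in the fit Fam111a had 0.46, among females 0.51, with the B cell marker level 0.35 and with the plasma cell marker level 0.41. Elsewhere the genotypes overlapped: 0.10 ± 0.11 in non-Tfh, 0.04 ± 0.07 in GC B and -0.08 ± 0.09 in non-GC B cells (log2, SE, edgeR adjusted p = 0.787, 0.991 and 0.994).

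Levels of Fam111a were highest in B cells and, among T cells, higher in the Tfh gate. The non-GC B, GC B, Tfh and non-Tfh groups followed each other in that order, and no T cell library reached a B cell library. Tfh exceeded non-Tfh cells by 1.18 ± 0.09 in WT and 1.51 ± 0.09 in KO (log2, SE). These Tfh libraries also chose the gene, so the 2 values are a description and no test is given. GC B cells lay below non-GC B cells by a log2 fold change of -0.27 ± 0.07 in WT (SE, edgeR adjusted p = 0.00505, under the fold limit) and -0.14 ± 0.10 in KO (adjusted p = 0.214). Hip1r, Cd22 and Fcrl1 were nearest to it (r = 0.980, 0.980 and 0.977). Cd22 and Fcrl1 encode receptors of B cells, and Cd22 was also at 183 CPM in Tfh WT and 194 CPM in Tfh KO libraries against 8.03 and 7.10 CPM in non-Tfh libraries.

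Lrr1 was at 6.06, 7.21 and 9.26 CPM in Tfh WT and 9.17, 12.4 and 15.2 CPM in Tfh KO libraries. Only WT replicate 6, the highest WT library, exceeded the lowest KO library. The log2 fold change was 0.76, and it was 0.88 with sex in the fit, 1.02 among females, 0.47 with the B cell marker level and 0.72 with the plasma cell marker level. Non-Tfh libraries held 0 to 67 counts in WT and 8 to 66 in KO (log2 fold change 0.82 ± 0.76, SE, 95% interval -0.80 to 2.44, adjusted p = 0.756). GC B libraries averaged 15.8 CPM ± 3.58 in WT and 15.3 CPM ± 2.98 in KO (SD, n = 6 each), a log2 fold change of -0.05 ± 0.17 (SE, adjusted p = 0.997). In non-GC B cells 1 count was found in the WT libraries and 14 in the KO libraries, and the gene did not pass the filter.

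Lrr1 was high in the populations that were high in proliferation markers. Tfh exceeded non-Tfh cells by 3.95 ± 0.64 in WT and 3.91 ± 0.35 in KO (log2, SE). As the Tfh libraries also chose the gene, these values are a description and no test is given. GC B cells exceeded non-GC B cells by a count ratio of 142 in KO (95% counting interval 84.7 to 261) and of 2621 in WT, where the interval of 470 to 103600 rests on that 1 count. Both intervals cover counting error only and not the spread between libraries. Lrr1 passed the filter there only through the GC B libraries, so the ratios are a description. The order was GC B WT, GC B KO, Tfh KO, Tfh WT, then the non-Tfh and non-GC B groups, and Tfh WT with non-Tfh KO were the only neighbours that did not overlap. Spc24, Ccna2 and Pbk, which act in mitosis and the cell cycle, were nearest (r = 0.978, 0.977 and 0.976). Ccna2, cyclin A2, averaged 289 CPM in Tfh WT, 359 CPM in Tfh KO, 11.3 CPM in non-Tfh WT and 353 CPM in GC B WT libraries.

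Most of the genes that work with Fam111a and Lrr1 were on the higher side in KO Tfh cells, and none met both call limits. In the list of PCNA, its loader and its partners 17 of 18 other genes had a positive log2 fold change and none was called (median 0.34, all genes 0.00). Among genes of replisome unloading by CUL2-LRR1 22 of 24 were positive with a median of 0.28, and among 14 proliferation markers all 14 were positive with a median of 0.33. None of these was called either. At FDR under 0.05, without the fold limit, there were 2 PCNA genes, 4 replisome genes and 1 proliferation marker (edgeR), beside 190 of all 13495 genes. At an unadjusted p under 0.05 there were 17, 16 and 11, and the share of all genes at that limit is not given here. Mitochondrial genes took 0.43 to 0.563% of counts in Tfh WT and 0.256 to 0.465% in Tfh KO libraries, with KO replicate 4 the one within the WT range, and their part in these shifts was not tested. The medians were 0.18, 0.05 and 0.41 in non-Tfh cells, 0.12, 0.08 and 0.08 in GC B cells and 0.05, 0.03 and -0.09 in non-GC B cells. In the same order of lists, 17 of 18, 16 of 24 and 14 of 14 genes were positive in non-Tfh cells. The counts were 18 of 18, 18 of 24 and 13 of 14 in GC B cells and 12 of 18, 14 of 23 and 3 of 14 in non-GC B cells. Positive values were thus not limited to Tfh cells. Genes within a list are not independent of each other, and these medians and counts are descriptions.

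Between populations the counts of these lists stand beside 43.2% of all genes called, in either direction, in Tfh against non-Tfh WT cells and 47.8% in GC B against non-GC B WT cells. In Tfh against non-Tfh WT cells 16 of 18 PCNA genes were higher, led by Rfc4 (2.12 ± 0.12), Lig1 (3.00 ± 0.18) and Fen1 (1.60 ± 0.11, log2, SE). For replisome unloading 15 of 24 were higher, led by Mcm6 (1.84 ± 0.08), Cdc45 (3.24 ± 0.18) and Mcm5 (2.35 ± 0.14), and all 14 proliferation markers were, led by Cdc20, Tyms and Cdk1 (3.71 ± 0.18, 3.02 ± 0.20 and 4.64 ± 0.31). In GC B against non-GC B WT cells the counts were 16 of 18, 21 of 24 and 14 of 14. Lig1, the ligase of replication, was higher there by 3.98 ± 0.13, Mcm5 by 3.17 ± 0.11 and Ccnb2 by 7.33 ± 0.25.

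**Figure D3:**
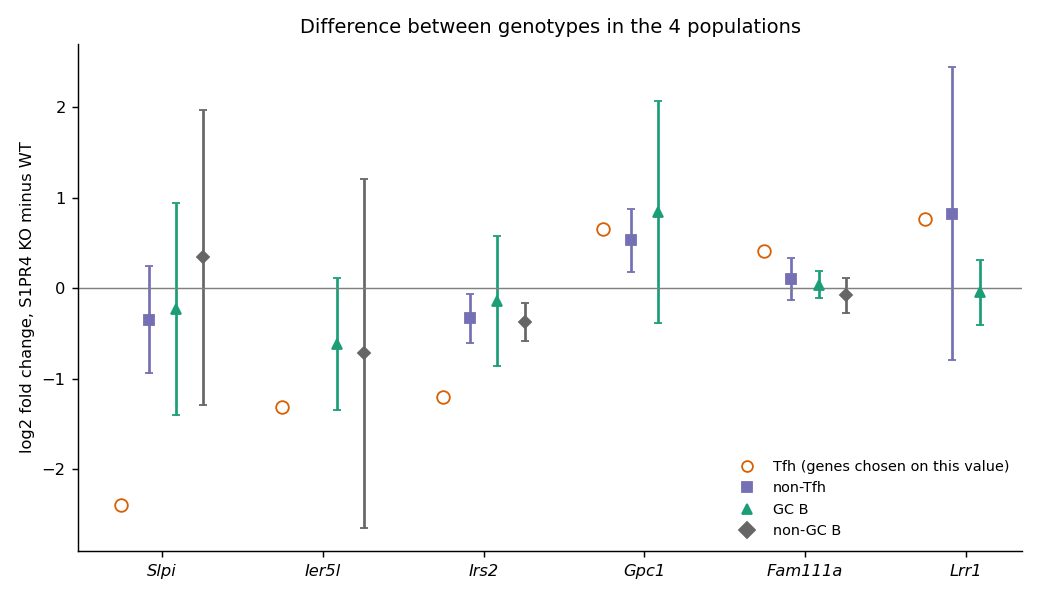
Log2 fold change between S1PR4 KO and WT (y axis) of each gene in each population, with 95% intervals for the 3 populations that did not choose the genes. Open circles are the Tfh values that chose them and carry no interval; genes below the low-count filter are not drawn. Intervals of Gpc1 and Irs2 in non-Tfh and of Irs2 in non-GC B cells lie on one side of 0.

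Outside Tfh cells no member was called between genotypes. In non-Tfh cells 5 of the 6 were tested and none was called, beside 0.114% of all genes, and none was without overlap, beside 1.11%. Gpc1 and Irs2 were at an unadjusted p under 0.05 there (edgeR). The share of all genes at that limit is not given here, so this is read only gene by gene. Among females the Irs2 log2 fold change in non-Tfh cells was -0.055. In GC B cells all 6 were tested and none was called, beside 0.0612%, with no member free of overlap, beside 0.207%, and none at an unadjusted p under 0.05. In non-GC B cells 4 were tested and none was called, beside 0.0537%. Irs2 was at an unadjusted p under 0.05 there, again without a share of all genes at that limit. The DESeq2 and limma voom fits called no member in these populations either. Whether the genotype difference of a member differs between Tfh and another population was not tested, since the Tfh values chose the members.

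Between populations, 5 of the 6 were called in Tfh against non-Tfh WT cells, beside 43.2% of all genes, and 4 of 6 in KO cells, beside 43.4%. The Tfh libraries here are those on which the genes were chosen, so these counts are a description. Slpi lay above non-Tfh cells in WT and not in KO (log2 fold change 1.85 and -0.19), which follows from the Tfh difference that chose it together with non-Tfh means of 7.09 and 5.56 CPM. In GC B against non-GC B cells 3 of 5 tested were called in WT, beside 47.8%, and 3 of 6 in KO, beside 48.2%. Lrr1 in both genotypes and Gpc1 in KO are among those called. They passed that filter only through the GC B libraries, where they are high, so their calls carry no test. Slpi was higher in GC B cells by 5.68 ± 0.75 in WT and 5.09 ± 0.88 in KO (log2, SE, edgeR adjusted p = 2.36e-05 and 0.000364), and Ier5l did not differ by the test (0.31 with a 95% interval of -0.76 to 1.37 in WT and 0.41 with -1.13 to 1.95 in KO). These shares were near those of all genes or rested on 6 genes, and are read only gene by gene.

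**Figure D4:**
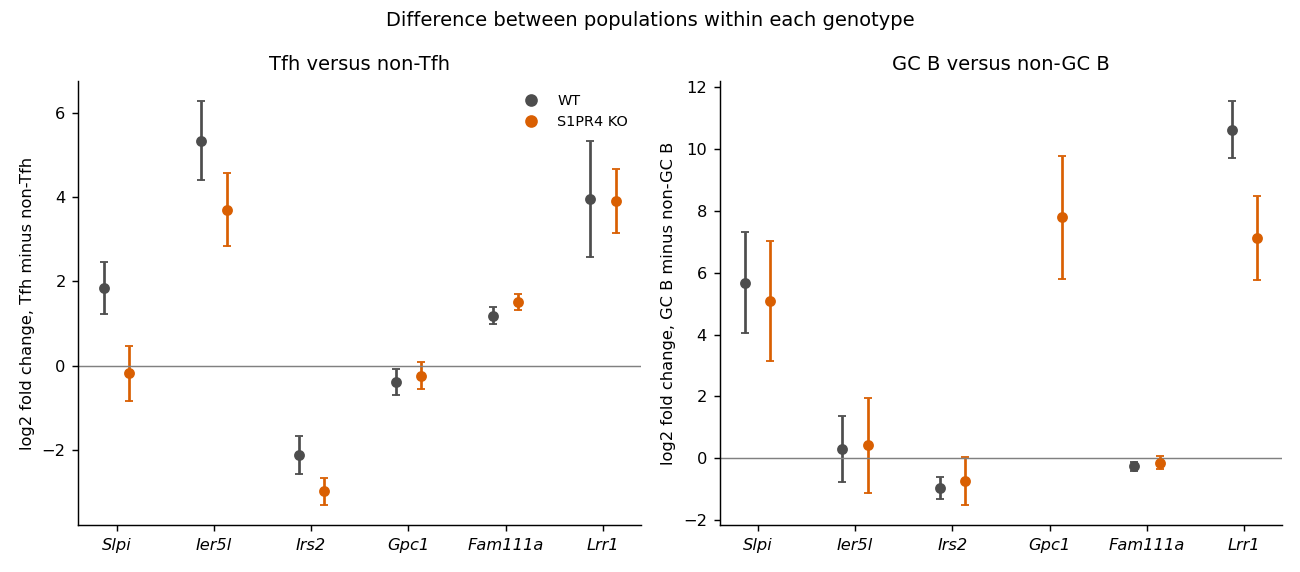
Log2 fold change of each gene between Tfh and non-Tfh cells (left) and of GC B cells over non-GC B cells (right), with 95% intervals, in WT (grey) and S1PR4 KO (orange) mice. Gpc1 in WT B cells did not pass the low-count filter and is not drawn. In the right panel Lrr1 in both genotypes and Gpc1 in KO passed it only through GC B libraries, so those values are a description. The Tfh libraries also chose the genes, so the left panel is a description. Slpi lies at 1.85 in WT and -0.19 in KO there.

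The Tfh values kept their sign in every alternative run. These runs refit the libraries that chose the genes, so their stability is a description and no independent check. Over the libraries left out singly, the log2 fold change ranged from -2.60 to -2.22 for Slpi, -1.41 to -1.21 for Ier5l, -1.34 to -1.10 for Irs2, 0.60 to 0.72 for Gpc1, 0.37 to 0.44 for Fam111a and 0.68 to 0.83 for Lrr1. How many of them met both limits depended on single libraries: 2 did without WT replicate 2, WT replicate 5, KO replicate 1 or KO replicate 5, and 3 did without WT replicate 3 or KO replicate 4.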

How the data were processed

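RNA of 45 sorted libraries was read on one deposited table of RSEM expected counts per gene symbol, which per the labels and the study's methods came from Cutadapt 2.10, STAR 2.5.3 on mm10, Picard and RSEM 1.3.0; the authors deposited the estimated counts without scaling, and 8.83% of the values were not whole. A multi-mapped read can be shared between genes in such counts. The 111 repeated symbols did not touch the members. Here the counts were rounded, filtered with filterByExpr, scaled by TMM and tested for each pair of groups with edgeR 4.0.16 (quasi-likelihood test, Benjamini-Hochberg adjustment over all genes tested), in R 4.3.3. A gene was called at FDR under 0.05 and fold over 1.5. CPM used TMM over all 45 libraries, and log2 CPM a prior count of 2. DESeq2 1.42.0, limma voom 3.58.1, other scalings, no filter, covariates, the replicate number and single libraries left out were alternatives, and the fits were tested on simulated data. The methods name GENCODE M30; coordinates here are from M21. Named genes were the members, the 3 genes nearest to each over all libraries, and listed genes other than members that were called between genotypes or, between WT populations, the 3 with the lowest adjusted p in each direction. Members and lists were chosen with earlier results of these data known. No source states that a replicate number marks one mouse, and in no comparison did every same-numbered pair correlate above 0.1, so numbers were not used as pairs. Same-numbered Tfh and non-Tfh libraries did match in sex in 6 of 6 pairs of each genotype, so they may come from the same mice. The non-Tfh genotype comparison may then not be independent of the Tfh comparison that chose the genes.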

Additional observations from a re-analysis of the deposited data

Results flagged for a closer look

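Of 47 combinations of gene and group, 7 held 1 library far from the others by Dixon's criterion, where chance gives about 2.4. Slpi had 3 of them. GC B WT replicate 2 was at 3257 CPM and the others at 1519 to 2118 CPM, GC B S1PR4 KO replicate 3 was at 5150 CPM and the others at 391 to 2097 CPM, and non-GC B WT replicate 3 was at 139 CPM and the others at 10.7 to 34.2 CPM. The summed plasma cell markers of those libraries were 9241, 18740 and 865 CPM, the highest of each group. Their part in the Slpi level was not tested. Irs2 was at 24.1 CPM in non-Tfh S1PR4 KO replicate 5, with the others at 17.2 to 19.5 CPM, and at 56.7 CPM in non-GC B S1PR4 KO replicate 1, below the others at 68.1 to 69.1 CPM. Lrr1 was at 1.69 CPM in non-Tfh WT replicate 1, with the others at 0 to 0.56 CPM, and at 0.0321 CPM, a single count, in non-GC B WT replicate 4, with the others at 0. No member had genotype or population effects that were free of overlap in opposite directions.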

How the results depend on the processing

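The T cell genotype comparisons moved most. In Tfh cells 67 genes were called, 191 with DESeq2, 153 with all 8 groups in one fit and 157 with sex as a covariate, but 7 among female samples only, 12 with the B cell and 6 with the plasma cell marker level, and 15 to 117 with single libraries left out: 15 without WT replicate 2, WT replicate 5 or KO replicate 1, 19 without KO replicate 5, 25 without WT replicate 3, 30 without KO replicate 6, 44 without KO replicate 4, 116 without WT replicate 6 and 117 without KO replicate 3. The count of members called in Tfh cells went from 5 to 3 with the replicate block, 2 with all 8 groups, 0 among females and with either marker level, and 2 to 5 with single libraries left out. The cause was not tested, apart from the fewer libraries among females. In non-Tfh cells 15 genes were called, 56 with DESeq2, 7 with sex, 6 among females, 9 with the B cell and 8 with the plasma cell marker level, and 11 to 27 with single libraries left out, 27 being without WT replicate 6. DESeq2 called 14 genes in GC B and 16 in non-GC B cells against 8 and 7, and all 8 groups gave 25 in non-GC B cells.

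Signs turned only in values that passed no test. In non-Tfh cells Slpi had a log2 fold change of 0.072 with the B cell and 0.098 with the plasma cell marker level, Fam111a -0.035 with sex, -0.088 among females and -0.19 with the B cell marker level, and Lrr1 -0.39 among females and -1.09 with the B cell marker level. In GC B cells Lrr1 ranged from -0.14 to 0.051 with single libraries left out, and was above 0 without WT replicate 1, KO replicate 3 or KO replicate 5. Irs2 between GC B and non-GC B KO cells passed at -0.90 with total counts, -0.94 with limma voom, -0.79 with all 8 groups and -0.84 with sex. The female and plasma cell alternatives were chosen after the data were seen. Whether replicate numbers mark shared mice is not stated. As a replicate block the number left 46 genes called in Tfh cells, and it changed no other call of a member. In Tfh against non-Tfh cells of each genotype 4 of 6 pairs correlated best with their own number, and all correlations were positive. Depth limits Ier5l in non-Tfh and Gpc1 and Lrr1 in non-GC B cells, which stayed under the filter.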
